A study of Mus musculus with 6 samples.

Results

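Axon guidance genes encode the secreted and membrane-bound cues, and their receptors, by which a cell steers its own processes or keeps its distance from a neighbour. They were taken here by symbol from a table of 17866 protein-coding genes, which held 66 of them. The 34 ligand genes comprised 19 semaphorins, 3 Slits, 4 netrins, 5 ephrin-A and 3 ephrin-B genes. The 32 receptor genes comprised 9 plexins, 2 neuropilins, 3 Robo genes, 4 Unc5 genes with Dcc, 8 EphA and 5 EphB genes. Sema3g, Robo4 and Epha8 were not analysed here. The libraries were bulk RNA-seq of separated corneal epithelium from C57BL/6 mice aged 6 months, 3 labelled WT and 3 labelled Rela-/- (KO below). Per the study's methods, the mutants were Krt14-Cre; Rela f/f mice, in which Cre acts in K14-expressing epithelial cells and a floxed gene for the p65 subunit of NF-κB is removed there. The controls were described as age-matched, and the labels give no allele or transgene for them. The same Cre line also marks limbal, conjunctival and meibomian gland epithelium, so deletion is not limited to the cornea.

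Each library held between 20158404 and 20880347 estimated counts over the table. A floor of 3 counts was worth 0.137 to 0.152 CPM, the count scaled to a library total of 1000000 and corrected for composition by TMM. Intervals and floors given here cover counting error only. Levels are mean ± SD over the 3 libraries of a group, and fold changes of KO against WT carry ± SE. Rela had 1871, 1844 and 1855 counts in the WT libraries against 318, 223 and 313 in the KO libraries, so 16.5% of its WT level remained. The 6 genes read for corneal epithelium (Krt12, Pax6, Aldh3a1, Tkt, Krt5 and Cdh1), not all of them restricted to it, were detected in every library. Their summed level was 91910 to 95338 CPM in WT and 21675 to 24158 CPM in KO. Without Krt12, which the study calls specific to corneal epithelium, it was 56145 to 57609 CPM in WT and 16116 to 16392 CPM in KO. The sum for 6 epidermis markers was 20.5 to 26.2 CPM in WT and 12290 to 25233 CPM in KO. In bulk RNA of this kind, fewer cells of a type and less RNA per cell cannot be told apart.

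Semaphorins signal through plexins, with neuropilins as co-receptors for most secreted class 3 members. Slits bind Robo receptors and are best known for repelling axons. Netrins attract growth cones through Dcc and repel them through Unc5 receptors, and ephrins bind Eph receptor tyrosine kinases at cell contacts, where both partners can signal. The cornea is among the most densely innervated surfaces of the body, and the same families act in epithelia themselves, in cell sorting, wound closure and the integrity of cell layers.

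Of the 66 genes, 52 had enough counts for a test and 14 did not. Among the tested genes 18 were higher and 21 lower in KO at an adjusted p of 0.05, and 13 did not pass (edgeR quasi-likelihood test, Benjamini-Hochberg adjustment over 13305 genes). Of all 13305 genes tested, 62.0% passed, 31.8% as higher and 30.2% as lower in KO. With an offset for gene length these counts were 24 and 18. The study called genes at an adjusted p of 0.001 or less and a fold of 2 or more. By that threshold 10 guidance genes were higher (6 without WT replicate 1) and 7 lower, where 19.8% of all genes passed, 11.6% as higher and 8.24% as lower. The 3 KO libraries did not overlap the 3 WT libraries for 40 of the 52 genes, beside 68.6% of all genes tested. The median log2 fold change was 0.08 over the 52 genes and 0.01 over all genes tested. Genes that reached the test only through their KO or their WT level had to differ, so these counts describe the set and support nothing more.

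**Figure D1:**
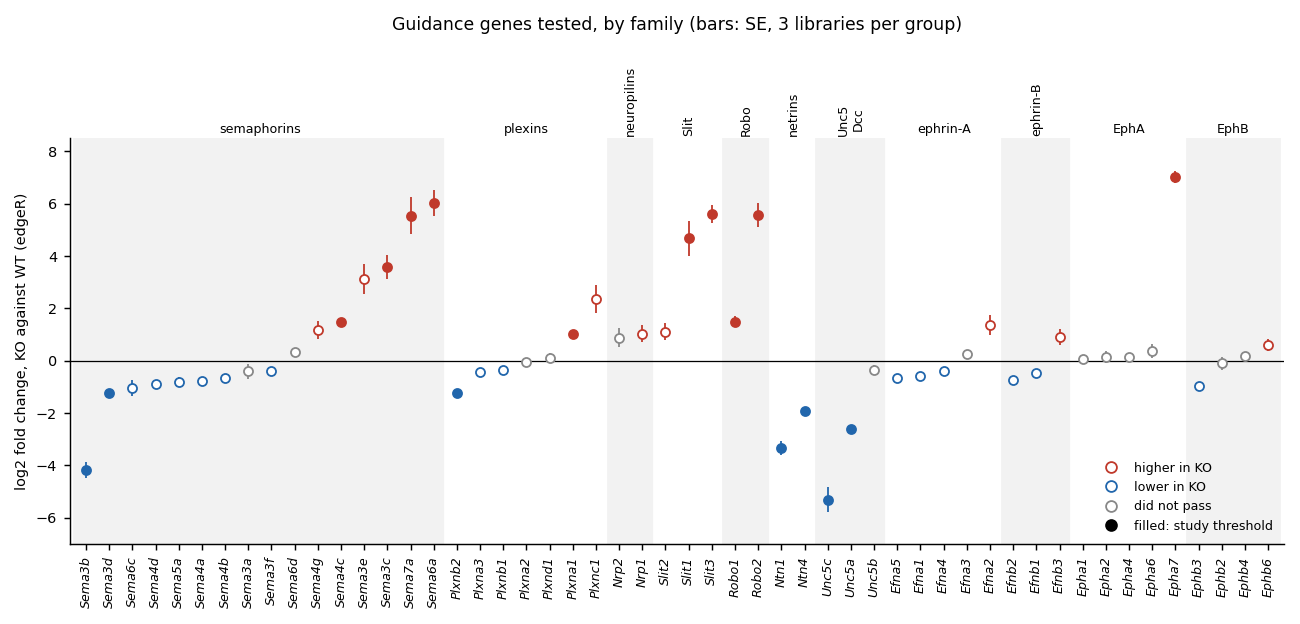
Log2 fold change of KO against WT (y axis, edgeR) for the 52 tested guidance genes, ordered within family, with bars for the SE and filled points for genes at the study threshold. Slit and Robo genes lie above 0, netrin and Unc5 genes below it, and 4 of the 5 tested EphA genes lie near 0 while Epha7 reaches 7.02.

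Other cell types in the preparation could contribute some of these transcripts, so lists of their markers were read in the same libraries. For neurons and axons, 10 markers had a row and 1 of them, Tubb3, was tested, through its KO level. Tubb3 had 2, 2 and 4 counts in the WT libraries against 385, 447 and 649 in the KO libraries. The summed level of the list was 0.232 to 0.379 CPM in WT and 20.8 to 33.4 CPM in KO, and 1.10 to 1.80 CPM in KO without Tubb3. Gap43, Nefm, Stmn2, Calca and Tac1 were at 0 in every WT library, and Gap43 had 8, 22 and 15 counts in KO.

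For Schwann cells and melanocytes, 5 of 6 tested markers were lower in KO, and the sum over 10 markers was 447 to 584 CPM in WT and 146 to 177 CPM in KO. For stromal fibroblasts, 4 of 5 tested markers were higher and Pdgfra was lower. The sums over 8 markers were 13.3 to 16.9 CPM in WT and 15.0 to 24.5 CPM in KO. Without Pdgfra they were 0.687 to 2.84 CPM in WT and 13.6 to 23.5 CPM in KO, and Lum was at 0 in every WT library. For vascular endothelium, 2 of 3 tested markers were higher, and Kdr was at 0 in WT. The sums over 6 markers were 2.15 to 3.45 CPM in WT and 3.96 to 8.76 CPM in KO. Without Flt1 they were 1.91 to 2.41 CPM in WT and 2.56 to 3.49 CPM in KO. For immune cells, 5 of 7 tested markers were higher and Itgam was lower. Their summed level over 8 markers was 271 to 347 CPM in WT and 269 to 341 CPM in KO, and without Itgam 37.5 to 40.2 and 90.5 to 139 CPM. For goblet cells, 3 of 4 tested markers were higher, with sums over 5 markers of 1.74 to 2.98 CPM in WT and 8.12 to 31.1 CPM in KO, and Muc5ac and Tff1 were at 0 in WT. Of all genes tested, 31.8% were higher and 30.2% lower in KO. A marker at 0 in WT could enter the test only through its KO level, and so only as higher. The marker counts therefore describe the lists, and the part of these cells in the changes below was not tested.

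Because the deleted gene encodes a DNA-binding protein, RefSeq promoter windows (GRCm38.p6, from 250 bases before a transcription start to 50 after it) were read for 56 of the 66 genes. The 10-base NF-κB consensus (κB motif, either strand) occurred in a window of 7 of these 56 genes (12.5%), and in 5.14% of the 27025 genes that have a window. A variant with A or T in place of C or T at position 7 occurred in 9 of the 56 genes (16.1%) and in 4.27% of all genes. Windows of guidance genes were richer in G and C, with a median of 64.3% beside 52.7% for all windows. The 7 genes comprised 2 higher (Sema4c and Efna2), 3 lower (Sema4a, Sema4b and Sema6c), 1 that did not pass (Ephb2) and 1 not tested (Ephb1). Sema4c was the gene among them at the study threshold. The windows read for Epha7, Slit3, Robo1, Robo2, Sema3c, Sema3d, Sema7a, Plxnb2, Unc5a, Unc5c and Ntn4 held no match, which says only that these letters are not in those windows. The 3 class 4 semaphorins with a match are printed here because they changed in opposite directions, 5′ to 3′ on the strand of the gene, with the matched bases in capitals and positions counted from the start. Sema4c (chr1:36558332-36558631, minus strand) was higher in KO, and its match begins at -186. Sema4a (chr3:88459052-88459351, minus strand) was lower, with a match at -173, and Sema4b (chr7:80186620-80186919, plus strand) was lower, with a match that begins 6 bases after the start. The windows of Sema4c and Sema4a lie inside the gene as the deposited table bounds it, so they belong to internal starts, whereas that of Sema4b spans the outer end. No binding was measured in these libraries.
Sema4c: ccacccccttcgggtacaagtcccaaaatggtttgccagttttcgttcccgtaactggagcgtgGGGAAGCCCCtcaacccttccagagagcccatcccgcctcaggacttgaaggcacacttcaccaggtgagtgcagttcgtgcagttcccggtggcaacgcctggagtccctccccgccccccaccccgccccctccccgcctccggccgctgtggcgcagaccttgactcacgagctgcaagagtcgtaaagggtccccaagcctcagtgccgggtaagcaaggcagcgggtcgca
Sema4a: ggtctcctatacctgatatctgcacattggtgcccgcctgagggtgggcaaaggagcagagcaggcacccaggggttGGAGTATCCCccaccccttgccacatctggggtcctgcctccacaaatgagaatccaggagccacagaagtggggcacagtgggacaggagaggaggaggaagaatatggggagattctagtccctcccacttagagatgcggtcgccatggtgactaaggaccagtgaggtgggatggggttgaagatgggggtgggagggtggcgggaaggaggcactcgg
Sema4b: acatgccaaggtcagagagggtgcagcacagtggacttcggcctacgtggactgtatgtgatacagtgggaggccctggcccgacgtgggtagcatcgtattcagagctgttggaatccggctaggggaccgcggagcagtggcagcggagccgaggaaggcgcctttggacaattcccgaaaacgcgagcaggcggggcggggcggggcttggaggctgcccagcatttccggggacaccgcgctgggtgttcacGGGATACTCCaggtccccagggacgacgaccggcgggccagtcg

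Netrins and their Unc5 receptors were lower in the mutant epithelium. Both tested netrins and 2 of the 3 tested Unc5 genes fell, all 4 at the study threshold. Unc5c was near the floor in KO and reached the test through its WT level, so it could be called only as lower. The summed FPKM of the 4 netrin genes, a level per gene length given as a description, was 20.8 ± 3.51 in WT and 4.61 ± 0.556 in KO. FPKM summed over all genes came to 458582 to 477306 in WT and 542098 to 558392 in KO, so FPKM is not scaled alike in both groups and no family sum was tested. For the Unc5 genes with Dcc it was 48.0 ± 3.27 in WT and 9.52 ± 1.16 in KO, 19.8% of the WT level.

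Ntn4 (gene 57764, GRCm38 chromosome 10, positions 93641049 to 93747207), a netrin of basement membranes, was the most abundant netrin per length in both groups. Its counts were 1039, 792 and 843 in the WT libraries against 221, 183 and 245 in the KO libraries. All KO values lay below all WT values, and 26.2% of the WT level was left (log2 fold change -1.93 ± 0.147 SE, edgeR adjusted p = 1.50e-05). Ntn1 (gene 18208, chromosome 11, from 68209364 to 68386826), the classical secreted netrin, had 452, 250 and 336 counts in the WT libraries against 26, 33 and 36 in the KO libraries. It dropped further than Ntn4, to 9.88% of WT, with no overlap (log2 fold change -3.33 ± 0.252 SE, edgeR adjusted p = 1.47e-05). Ntn5 was too low for the test, with 7, 5 and 7 counts in WT and 0 in each KO library. Set against the floor of 3 counts per library, this is at least 1.96-fold lower. Ntn3 had at most 3 counts in any library and was not detectable at this depth.

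Unc5a (gene 107448, chromosome 13, from 54949411 to 55006018) made up 90.3% of the summed FPKM of its family in WT and 69.7% in KO. Its counts were 3532, 3147 and 3783 in the WT libraries against 607, 437 and 548 in the KO libraries. The 2 groups were far apart, and 16.4% of the WT level remained (log2 fold change -2.61 ± 0.142 SE, edgeR adjusted p = 2.78e-06). Unc5c (gene 22253, chromosome 3, from 141465564 to 141834924) was much less abundant, with 189, 89 and 125 counts in the WT libraries against 1, 3 and 5 in the KO libraries. Its level fell from 6.24 ± 2.27 to 0.150 ± 0.0992 CPM (log2 fold change -5.32 ± 0.475 SE, edgeR adjusted p = 3.51e-05). Unc5b had 22.4 ± 6.06 CPM in WT and 17.5 ± 1.94 CPM in KO, the groups overlapped, and it did not pass (edgeR adjusted p = 0.153). WT replicate 3, at 15.4 CPM beside 25.5 and 26.3, lay below the 3 KO libraries at 15.9 to 19.6 CPM, and without it Unc5b was called lower (log2 fold change -0.55). Unc5d had at most 3.98 estimated counts in any library, and Dcc, the attractive netrin receptor, had a single count among the 6 libraries.

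All 3 Slit genes and both tested Robo genes were higher in KO, 4 of them at the study threshold, and their groups did not overlap. Slit1, Slit3 and Robo2 were near the floor in WT and reached the test through their KO level, so they could be called only as higher. The levels were low: the summed FPKM of the Slit genes was 0.253 ± 0.0833 in WT and 2.02 ± 0.466 in KO, and that of the Robo genes 2.64 ± 0.611 and 7.69 ± 1.10.

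Slit3 (gene 20564, chromosome 11, from 35121456 to 35708507) had 3, 4 and 2 counts in the WT libraries against 178, 111 and 130 in the KO libraries. Every KO library was far above WT (log2 fold change 5.59 ± 0.348 SE, edgeR adjusted p = 5.35e-06), and Slit3 went from 12.8% to 66.3% of the summed Slit FPKM. Slit1 (gene 20562, chromosome 19, from 41596530 to 41747540) had 1, 2 and 1 counts in the WT libraries against 57, 17 and 29 in the KO libraries, a ratio of 27.8 with an exact 95% counting interval of 10.5 to 104 (edgeR adjusted p = 4.46e-04). The KO counts of Slit1 were spread, with KO replicate 1 highest. Slit2, which led the family in WT, had 22, 50 and 47 counts in the WT libraries against 80, 77 and 83 in the KO libraries (log2 fold change 1.12 ± 0.307 SE, edgeR adjusted p = 0.0125).

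Robo1 (gene 19876, chromosome 16, from 72027551 to 73047491), an axon receptor for Slits, was the main Robo gene in both groups, with 98.8% of the summed FPKM in WT and 89.4% in KO. It had 427, 315 and 514 counts in the WT libraries against 1208, 1176 and 901 in the KO libraries. The groups were separate and the mean level was 2.82-fold higher (log2 fold change 1.495 ± 0.194 SE, edgeR adjusted p = 2.54e-04). Robo2 (gene 268902, chromosome 16, from 73891847 to 75447364) lies 844356 bases from Robo1. Its estimated counts were 1, 1 and 5 in the WT libraries against 127, 83.1 and 115 in the KO libraries (log2 fold change 5.57 ± 0.466 SE, edgeR adjusted p = 2.51e-05), and without WT replicate 3, the library with 5 counts, the log2 fold change was 6.72. Robo3, with at most 3 counts in any library, was not detectable at this depth.

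**Figure D2:**
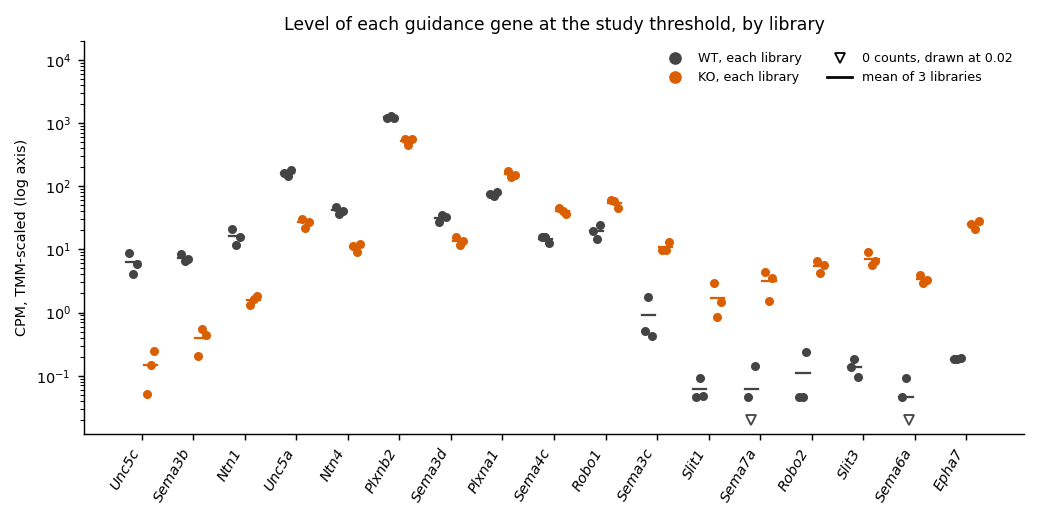
CPM (y axis, log scale, TMM-scaled) of the 17 guidance genes at the study threshold in each WT and KO library, with a bar at the mean of 3 libraries and open triangles for 0 counts. No KO point overlaps a WT point of the same gene, and 6 genes from Slit1 to Epha7 lie near or below the floor of 0.137 to 0.152 CPM in WT.

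Of 16 tested semaphorins, 6 were higher and 8 lower in KO. Sema4a, Sema3f, Sema4d and Sema4b, the 4 with the highest FPKM, were all lower, by factors between 1.30 and 1.84. Of the 6 that rose, 5 were below 1 CPM in WT, and Sema3e, Sema6a and Sema7a reached the test through their KO level, so they could be called only as higher. Sema3c also needed KO libraries, and Sema3b WT libraries, to reach the test, so neither call was free to go either way. The summed FPKM of the family was 243 ± 5.55 in WT and 153 ± 26.3 in KO, 62.9% of the WT level.

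Sema4a (gene 20351, chromosome 3, from 88435959 to 88461182), a membrane-bound class 4 semaphorin, had the highest mean FPKM of the family. Its estimated counts were 4342, 4061 and 4115 in the WT libraries against 2820, 1878 and 2008 in the KO libraries. The WT libraries were close together, KO replicate 1 was the highest KO library, and the groups did not overlap (log2 fold change -0.79 ± 0.154 SE, edgeR adjusted p = 0.00227). Sema4d, the ligand of plexin-B1, fell to 54.2% of WT (edgeR adjusted p = 0.00148) and Sema4b to 63.4% (edgeR adjusted p = 0.00121). Sema3f, a secreted ligand that uses neuropilin-2, was barely past the threshold (edgeR adjusted p = 0.0492) and was not called in 8 of the 16 alternatives, 5 of them fits without 1 library (WT replicate 1, 2 or 3, or KO replicate 2 or 3), where the log2 fold change ran from -0.57 to -0.28 over all such fits. Sema5a was lower as well (57.2% of WT, edgeR adjusted p = 0.00517), and so was Sema6c, at 1.75 ± 0.328 CPM in WT and 0.837 ± 0.244 CPM in KO, although not without WT replicate 1 or 2 or KO replicate 2 or 3 (Sema6c log2 fold change -1.31 to -0.91 over fits without 1 library).

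Sema4c (gene 20353, chromosome 1, from 36548639 to 36565614), a plexin-B2 ligand, was the exception among the better-expressed class 4 genes. It had 343, 336 and 269 counts in the WT libraries against 879, 815 and 724 in the KO libraries. The KO libraries were all higher, by 2.76-fold in the mean (log2 fold change 1.46 ± 0.127 SE, edgeR adjusted p = 3.12e-05). Sema4g was also higher (edgeR adjusted p = 0.0177), with 66, 30 and 38 counts in KO and 19 to 24 in WT. It was not called without WT replicate 1 or KO replicate 1, and its log2 fold change ran from 0.77 to 1.39 with 1 library left out. Sema4f had at most 6.63 estimated counts per library and was not tested.

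Among class 3 genes, Sema3b (gene 20347, chromosome 9, from 107597674 to 107609299) fell most, from 183, 140 and 151 counts in WT to 4, 11 and 9 counts in KO. All KO values were far below WT, and 5.46% of the level was left (log2 fold change -4.17 ± 0.306 SE, edgeR adjusted p = 1.26e-05). Sema3f is its neighbour, 72200 bases away, and was lower by a much smaller factor. Sema3d (gene 108151, chromosome 5, from 12383166 to 12588943) had 587, 753 and 692 counts in the WT libraries against 307, 231 and 270 in the KO libraries (log2 fold change -1.22 ± 0.148 SE, edgeR adjusted p = 1.76e-04). Of the other class 3 genes on that chromosome, 2 were higher. Sema3c (gene 20348, positions 17571589 to 17730268) rose from 11, 38 and 9 counts in WT to 191, 193 and 264 counts in KO. The fitted change was 3.58 ± 0.441 on the log2 scale (edgeR adjusted p = 1.90e-04), and 4.53 without WT replicate 2, the library with 38 counts. Sema3e was also higher, with estimated counts of 5.63, 4.20 and 1.81 in WT and 32.4, 14.9 and 51.9 in KO (edgeR adjusted p = 0.00175). Sema3a, the repellent that gave the class its early name of collapsin, had 1.91 ± 0.571 CPM in WT and 1.44 ± 0.246 CPM in KO and did not pass (edgeR adjusted p = 0.262).

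Sema6a and Sema7a, both anchored in the membrane, were at or under 3 counts in every WT library. Sema6a (gene 20358) had 1, 2 and 0 counts in the WT libraries against 78, 59 and 66 in the KO libraries, a ratio of 73.0 with an exact 95% counting interval of 24.6 to 357 (edgeR adjusted p = 2.16e-05). Sema7a (gene 20361, chromosome 9, from 57940135 to 57962865) had 1, 0 and 3 counts in the WT libraries against 88, 30 and 71 in the KO libraries, a ratio of 51.0 with an interval of 19.6 to 189 (edgeR adjusted p = 2.36e-04). KO replicate 2 was the lowest KO library for both. The fitted log2 fold changes, 6.02 and 5.54, depend on the prior count used by edgeR, and leaving out WT replicate 2 for Sema6a or WT replicate 3 for Sema7a moved them to 6.86 and 6.78. Sema6d had 23.8 ± 4.57 CPM in WT and 29.7 ± 5.66 CPM in KO and did not pass (edgeR adjusted p = 0.160). Sema5b and Sema6b had at most 5 counts in any library.

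**Figure D3:**
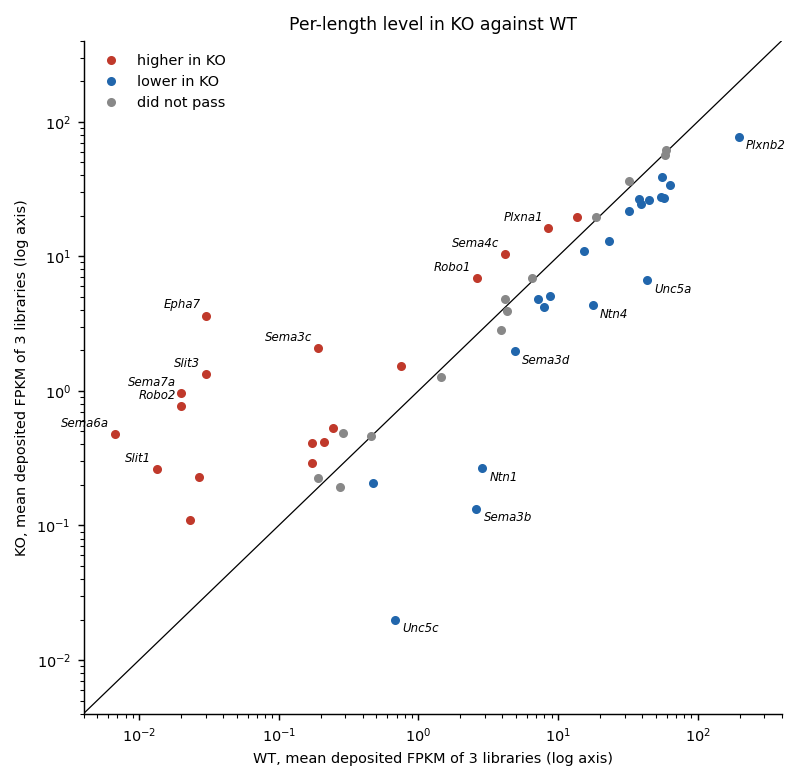
Mean deposited FPKM in KO (y axis) against WT (x axis), both on log scales, for the tested guidance genes, with genes at the study threshold named and a line where both are equal. Abundant genes such as Plxnb2 and Unc5a lie below the line, and Slit1, Slit3, Robo2, Sema6a, Sema7a and Epha7, far above it, are below 0.1 FPKM in WT.

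Plexins, the semaphorin receptors, were dominated by Plxnb2. Of 7 tested plexins, 2 were higher and 3 lower in KO, and the summed FPKM of the family was 256 ± 10.6 in WT and 130 ± 9.66 in KO. Plxnb2 (gene 140570, chromosome 15, from 89155546 to 89181536), a receptor for class 4 semaphorins, had the highest FPKM of all 66 genes. It had 26064, 28201 and 25250 counts in the WT libraries against 10907, 9072 and 10985 in the KO libraries. The groups did not overlap and 42.0% of the WT level was left (log2 fold change -1.25 ± 0.118 SE, edgeR adjusted p = 4.71e-05). It made up 77.1% of the summed plexin FPKM in WT and 59.6% in KO.

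Plxna1 (gene 18844, chromosome 6, from 89304630 to 89362613), a receptor used by class 3 and class 6 semaphorins, changed in the opposite direction, with 1649, 1529 and 1696 counts in the WT libraries against 3379, 2797 and 3067 in the KO libraries. Its mean was 2.05-fold higher, with every KO library above WT (log2 fold change 1.03 ± 0.101 SE, edgeR adjusted p = 5.48e-05), and its share of plexin FPKM went from 3.35% to 12.6%. Plxnb1, the Sema4d receptor, was lower (78.8% of WT, edgeR adjusted p = 0.0283) but not with the length offset, nor without WT replicate 1 or 3 or KO replicate 2 or 3 (Plxnb1 log2 fold change -0.44 to -0.26 over fits without 1 library). Plxna3 was lower too (73.5% of WT, edgeR adjusted p = 0.00833). Plxnc1, the receptor of Sema7a, had 1, 6 and 3 counts in the WT libraries against 14, 14 and 21 in the KO libraries (edgeR adjusted p = 0.00447, log2 fold change 2.36, and 3.06 without WT replicate 2). Plxnc1 reached the test through its KO level, so it could be called only as higher. Plxnd1 had 3.10 ± 0.307 CPM in WT and 3.33 ± 0.280 CPM in KO, and Plxna2 had 46.9 ± 7.87 and 45.3 ± 4.37 CPM. Neither passed (edgeR adjusted p of 0.670 and 0.776). Plxna4 and Plxnb3 were not detectable at this depth, with at most 2 counts in any library.

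The neuropilins were minor transcripts. Nrp1 had 52, 76 and 142 counts in the WT libraries against 161, 205 and 150 in the KO libraries, and was higher (log2 fold change 1.04 ± 0.339 SE, edgeR adjusted p = 0.0266). WT replicate 3 came close to KO, and Nrp1 was no longer called without WT replicate 1 or 2, or without KO replicate 1 or 2 (log2 fold change 0.76 to 1.56 over fits without 1 library). Nrp2 had 1.66 ± 0.377 CPM in WT and 3.07 ± 1.30 CPM in KO, overlapped, and did not pass (edgeR adjusted p = 0.0528). Nrp1 is also made by endothelium, whose summed markers stood at 2.15 to 3.45 CPM in WT and 3.96 to 8.76 CPM in KO. Without Flt1 they summed to 1.91 to 2.41 CPM in WT and 2.56 to 3.49 CPM in KO. The part of such cells was not tested.

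Ephrins showed small shifts in well-expressed genes. Of 8 tested ephrins, 2 were higher and 5 lower in KO, 0 at the study threshold. Efna3 (gene 13638, chromosome 3, from 89313899 to 89322960) had the highest mean FPKM of the ephrin-A genes over the 6 libraries. Its CPM was 55.8, 56.4 and 51.8 in WT and 82.8, 55.3 and 58.6 in KO. KO replicates 1 and 3 stood above the WT libraries, KO replicate 2 lay among them, and Efna3 did not pass (edgeR adjusted p = 0.163). Efna1 and Efna4 lie beside it, with gaps of 32948 and 10433 bases between neighbours, and both were lower. Efna1 had 1166, 1257 and 1157 counts in the WT libraries against 777, 777 and 661 in the KO libraries, 66.8% of the WT level (edgeR adjusted p = 0.00118). Efna4 kept 75.8% (edgeR adjusted p = 0.00986). Efna5, on another chromosome, kept 62.4% (edgeR adjusted p = 7.24e-04). These ephrin-A proteins are held to the outer membrane by a lipid anchor.

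Of the transmembrane ephrins, Efnb1 (gene 13641, chromosome X, from 99136061 to 99149022) led per length. It had 2355, 2240 and 2206 counts in the WT libraries against 1754, 1319 and 1493 in the KO libraries. The groups were separate and 72.5% of the WT level was left (log2 fold change -0.46 ± 0.114 SE, edgeR adjusted p = 0.00731). Efnb2 kept 59.4% (log2 fold change -0.75 ± 0.116 SE, edgeR adjusted p = 6.43e-04). The 2 ephrins that were higher were scarce: Efna2 had 11, 7 and 5 counts in the WT libraries against 20, 14 and 21 in the KO libraries, and Efnb3 had 12, 14 and 10 counts in the WT libraries against 23, 17 and 23 in the KO libraries. Their edgeR adjusted p-values were 0.0142 and 0.0293, and 3 and 8 of the alternatives did not call them. Among these were the fits without WT replicate 3 or KO replicate 3 for both, and without WT replicate 1 or KO replicate 1 for Efnb3 (log2 fold changes 1.15 to 1.70 for Efna2 and 0.82 to 1.04 for Efnb3 over fits without 1 library). Efna2 also needed KO libraries to reach the test, and so did Efnb3, whose 10 counts in WT replicate 3 fell just under the filter.

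Among the Eph receptors, 6 of 9 tested genes did not pass, 2 were higher and 1 was lower in KO. Epha2 (gene 13836, chromosome 4, from 141301221 to 141329384), a major Eph receptor of epithelia, had the highest mean FPKM of the EphA genes. It had 3616, 4983 and 5031 counts in the WT libraries against 5487, 3192 and 5267 in the KO libraries, so the groups overlapped widely (log2 fold change 0.14 ± 0.220 SE, edgeR adjusted p = 0.602). Epha1 was close to it per length, and had 185 ± 6.43 CPM in the WT group against 192 ± 9.94 in the KO group, with overlap (edgeR adjusted p = 0.611). Epha4 had 116 ± 7.01 CPM in WT and 129 ± 2.85 CPM in KO and did not pass (edgeR adjusted p = 0.122), although its groups did not overlap.

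Epha7 (gene 13841, chromosome 4, from 28813047 to 28967511) had the largest fitted change of the 52 tested genes. Its estimated counts were 3.54, 4.19 and 4 in the WT libraries against 504, 417 and 565 in the KO libraries. The level went from 0.186 ± 0.00308 to 24.9 ± 3.66 CPM (log2 fold change 7.02 ± 0.219 SE, edgeR adjusted p = 2.74e-07). The mean was 134-fold higher, a ratio that rests on few WT counts. The WT estimated counts each round to 4, so the WT SD reflects library size and does not measure the spread between WT libraries. Epha7 was near the floor in WT and reached the test through its KO level, so it could be called only as higher. In KO its FPKM of 3.16 to 4.10 was still well below that of Epha2, at 43.7 to 72.0. Epha6 did not pass (edgeR adjusted p = 0.241). Epha3 was at 0 in WT and had 7, 1 and 4 counts in KO, Epha10 had at most 5.61 estimated counts in any library, and Epha5 was not detectable at this depth.

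Ephb3 (gene 13845, chromosome 16, from 21204795 to 21223309) led the EphB genes, with 72.4% of their summed FPKM in WT and 49.9% in KO. Its estimated counts were 4993, 4753 and 5162 in the WT libraries against 2775, 2141 and 2143 in the KO libraries. All KO libraries were lower, and 51.1% of the WT level was left (log2 fold change -0.97 ± 0.125 SE, edgeR adjusted p = 2.49e-04). Ephb6, a receptor whose kinase domain is inactive, had 1115, 1061 and 1051 counts in the WT libraries against 2077, 1377 and 1078 in the KO libraries. It passed with an edgeR adjusted p of 0.0364, but KO replicate 3 lay beside the WT libraries and 8 of 16 alternatives did not call it, among them every fit without 1 library but that without KO replicate 3 (log2 fold change 0.29 to 0.80). Ephb2 and Ephb4 had 15.7 ± 4.38 and 27.7 ± 3.29 CPM in WT and 14.6 ± 3.70 and 31.5 ± 2.04 CPM in KO, and did not pass (edgeR adjusted p of 0.715 and 0.186). Ephb1 was at 0 in WT and had 7, 8 and 13 counts in KO, at least 3.35-fold higher against the floor of 3 counts per library.

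**Figure D4:**
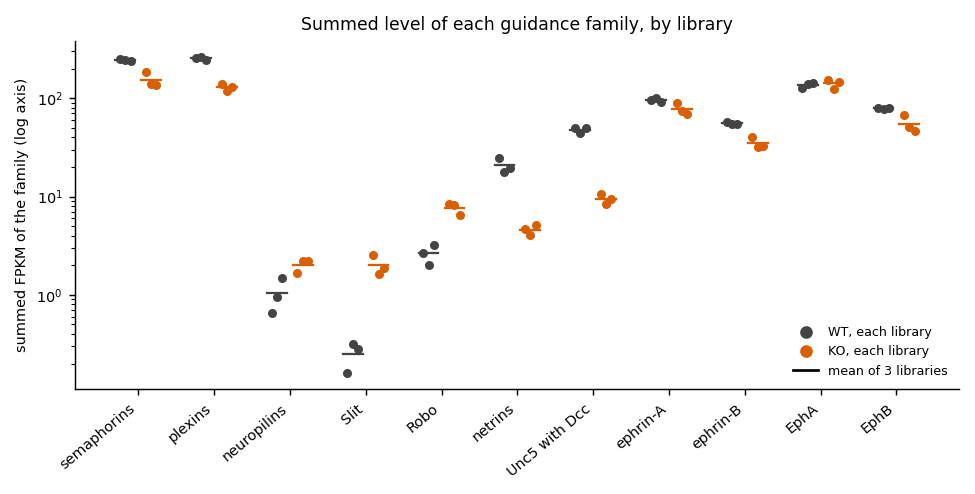
Summed deposited FPKM (y axis, log scale) of each guidance family in the 3 WT and 3 KO libraries, with a bar at the mean. Netrins and Unc5 genes with Dcc stand at 22.2% and 19.8% of WT, the Slit and Robo sums are higher in KO, and the EphA sum is at 104% of WT with overlapping libraries.

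The proteins that carry these signals inside the cell were read from a separate list. Of 51 tested transducers, 12 were higher and 25 lower in KO, so 72.5% were called, beside 62.0% of all genes (31.8% higher and 30.2% lower). The median log2 fold change was -0.33, beside 0.01 for all genes. Fyn, a Src-family kinase downstream of several guidance receptors, rose most. It had 3 counts in each WT library and 574, 282 and 417 counts in KO, a ratio of 153 with an exact 95% counting interval of 80.1 to 334 (edgeR adjusted p = 2.84e-06). Chn2, a Rac GTPase-activating chimaerin, had the next rise at the study threshold, with 42, 31 and 30 counts in the WT libraries against 236, 253 and 309 in the KO libraries (log2 fold change 3.06 ± 0.189 SE, edgeR adjusted p = 5.12e-06). The related Chn1, which acts downstream of Epha4, fell most of the list. Its estimated counts were 75.8, 64.7 and 59.4 in the WT libraries against 1.66, 7.21 and 4.28 in the KO libraries (log2 fold change -3.80 ± 0.373 SE, edgeR adjusted p = 5.72e-05). Fyn reached the test through its KO level and Chn1 through its WT level, so Fyn could be called only as higher and Chn1 only as lower.

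Among 17 other guidance cues and co-receptors, 10 were tested, 4 were higher and 3 lower in KO. These shares, 40% and 30%, stand beside 31.8% and 30.2% of all genes tested. All 3 Flrt genes, which encode adhesion proteins that bind Unc5 receptors, rose at the study threshold. Flrt2 had 24, 72 and 62 counts in the WT libraries against 505, 439 and 715 in the KO libraries (log2 fold change 3.49 ± 0.350 SE, edgeR adjusted p = 6.27e-05). Flrt3 had 18, 24 and 30 counts in the WT libraries against 177, 206 and 223 in the KO libraries (log2 fold change 3.17 ± 0.223 SE, edgeR adjusted p = 1.01e-05). Flrt1 was scarcer, at 0.297 ± 0.169 CPM in WT and 2.61 ± 0.908 CPM in KO. Because Flrt1 needed KO libraries to reach the test, its call was not free to go either way. Neo1, a further netrin receptor, had 1313, 1219 and 1052 counts in the WT libraries against 863, 869 and 888 in the KO libraries (log2 fold change -0.34, edgeR adjusted p = 0.0135). The Neo1 call was lost with the length offset, and without WT replicate 1 (log2 fold change -0.27 without that library). Rgmb and Chl1 were also lower and Ntng2 was higher, with log2 fold changes of -0.44, -0.46 and 1.57. The Chl1 call (edgeR adjusted p = 0.0429) was lost without WT replicate 1 or 3 or KO replicate 1 or 3 (log2 fold change -0.66 to -0.36 over fits without 1 library). It was also lost with the length offset, the replicate block and the mean count filter of 50.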

How the data were processed

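RNA of separated corneal epithelium from 3 WT and 3 KO mice was sequenced as single-end reads on a BGISEQ instrument per the study's methods, after ribosomal RNA depletion, while the labels name an Illumina kit. Reads were cleaned with SOAPnuke and aligned with Bowtie2 (2.2.5) by the authors, who deposited expected counts of RSEM (1.2.12), FPKM and TPM per gene. The submitters' processing notes name mm9, but the gene coordinates carry GRCm38 accessions, and all 66 members lay on their RefSeq GRCm38.p6 chromosome with a start or end close to RefSeq's. Estimated counts of 26 members were not whole, because RSEM splits reads between similar genes, so their levels are less certain. Use of strand in counting is not stated. The deposited strand column, mean columns and the authors' own DESeq2 log2 fold changes and p-values were not used, and the deposited TPM values were not analysed.

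Estimated counts were rounded and fitted over the whole table with edgeR 4.0.16 in R 4.3.3 (TMM, filterByExpr, glmQLFit, glmQLFTest, a model of genotype alone), and p-values were adjusted by Benjamini-Hochberg across every tested gene. The SE was taken from the size of the log2 fold change over the root of its F statistic. Tests used counts and levels of a gene are given as counts or CPM. The deposited FPKM, which divides by effective length, served for levels between genes and for family sums, which describe both groups without a test. Against a group at 1 to 3 counts per library, the ratio of summed counts is given with an exact (Clopper-Pearson) 95% interval. Against a group at 0, the mean CPM is set against 3 counts per library. The methods call the 3 samples of a group independent, and p-values set the difference between genotypes against the spread between samples of a group. The fit was also run on simulated data with far fewer changed genes than here and a single spread for all genes. That run does not measure error rates in these data. Alternatives used DESeq2 1.42.0, limma 3.58.1 on log2(FPKM + 1) and log2(FPKM + 0.1), other scalings and filters, a gene length offset, a replicate block, and each library left out in turn. Full values were given for members at the study threshold and for the most abundant member of each family, and for the 2 largest rises and falls of the transducer list, of which 1 gene is not reported here. Flrt1, Flrt2, Flrt3, Neo1, Rgmb, Chl1, Ntng2 and some members outside this rule were named after their values were seen. Members and lists were chosen with earlier results of these data known. Dpysl4, Nefl, Scn9a, Cdh5 and Emcn of the lists were not analysed here. Plots were drawn with matplotlib 3.10.9 under Python 3.11.15, with pandas 2.3.3, numpy 2.4.6 and scipy 1.17.1.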

Additional observations from a re-analysis of the deposited data

How the results depend on the processing

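All 17 members at the study threshold were called in the same direction at 0.05 in each of the 16 alternatives that tested them, and 29 of the 39 called members did so. Calls were lost in at least 1 fit for Sema3f, Sema4g, Sema6c, Plxna3, Plxnb1, Plxnc1, Nrp1, Efna2, Efnb3 and Ephb6. With each library left out in turn, 14 to 17 members were higher and 18 to 21 lower (18 and 21 with all libraries). At the study threshold, 6 to 10 were higher, the lowest count being that without WT replicate 1, and 6 to 9 were lower. The mean count filter of 50, which tests fewer genes, left 10 higher members and 2 higher genes among the other cues. limma on log2(FPKM + 1), which understates changes of scarce genes by construction, left 5 higher members at the study threshold. A test against the fold of 2 itself (glmTreat) gave 11 higher and 6 lower members. Of the other cues, 1 was lower with the length offset, and 1 to 3 without a library, the count of 1 being that without WT replicate 1. The sign reversed only for genes that had not passed. The Plxna2 log2 fold change went from -0.05 to 0.28 with the length offset, where it was called higher, and ran from -0.15 to 0.091 with 1 library left out. The Ephb2 log2 fold change went from -0.10 to 0.20 with the length offset and ran from -0.33 to 0.16 with 1 library left out. The Epha1 log2 fold change went from 0.05 to -0.042 with total counts only and to -0.048 and -0.049 in the limma fits, and the Plxnd1 log2 fold change to -7.0e-05 and -0.00050 in the limma fits. The Epha2 log2 fold change ran from -0.0033 to 0.35 with 1 library left out. The Ptk7 log2 fold change went from 0.04 to -0.059 with total counts only and to -0.054 and -0.056 in the limma fits, and ran from -0.083 to 0.19 with 1 library left out. The cause of these shifts was not tested. Besides Plxna2, the length offset called 6 members and other cues that had not passed before (Sema6d, Nrp2, Epha4, Epha6, Ephb4 and Rgma). The replicate numbers come from titles that count within each genotype, and the animals differed. Same-numbered libraries deviated with correlations of 0.0345, -0.00998 and 0.0606, so the numbers do not pair them. With the replicate block, 18 members were higher and 21 lower, and 9 and 6 at the study threshold, while Efnb3 and Chl1 lost and Nrp2 gained a call. Depth limited 14 members that were not tested, 7 of them at or under 3 counts in every library.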
